A study of Mus musculus with 11 samples.

Results

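Embryoid bodies (EBs) were compared with embryonic stem cells (ESCs), both from mouse cells that lack Mettl3 (knockout, KO). Of the 11 samples of the series, 5 enter this comparison, namely 2 KO EB libraries (A and B) and 3 KO ESC libraries (A, B and C). All genes with a mean of 10 or more normalized counts over these 5 libraries were taken, which are 15735 of 39179 gene identifiers. The cells are labelled C57BL/6 and genotype Mettl3-KO, and the labels used here do not give the allele, the clone or the way the gene was removed. KO ESCs were kept in serum-free N2B27 medium with human LIF, the GSK3 inhibitor CHIR99021 and the MEK inhibitor PD0325901. KO EBs were made by trypsinising ESCs and moving them to non-adherent plates with serum-containing medium, where they stayed 8 to 21 days. The day of each library is not given. WT ESCs (3 libraries) and WT EBs (2 libraries) of the same strain, with intact Mettl3 and the same 2 cultures, serve where a change in KO is set against the change in WT. The replicates are called biological, but nothing states separate lines or days, so p-values measure the spread between these libraries, which may in part be technical.

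ESCs held with LIF and the 2 inhibitors are in the naive state, in which factors such as Nanog, Esrrb, Klf4 and Tfcp2l1 sustain self-renewal. In an embryoid body the naive factors normally fall while genes of the germ layers rise, and an outer layer of extraembryonic endoderm, named primitive, parietal or visceral by stage and place, lays down laminin and type IV collagen. Mettl3 is the catalytic subunit of the enzyme that writes N6-methyladenosine (m6A) on messenger RNA, a mark known to shorten the life of many transcripts of pluripotency genes.

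The KO EB libraries and KO ESC libraries A and B held 8523027 to 15426894 reads in genes, and KO ESC replicate C held 3075007. In replicate C, 3 reads correspond to 8.33 normalized counts, and in the other 4 libraries to 1.63 to 2.72. Replicate C, which the labels tie to a SILAC protein assay, stood apart. Over the tested genes, log2 values of KO ESC A and B had r = 0.990, and C had r = 0.648 with A and 0.654 with B, while C of KO and C of WT ESCs had r = 0.942. These are correlations across genes, which are not independent replicates. The median absolute log2 difference was 1.04 between C and the mean of A and B and 0.150 between A and B, and 1417 tested genes (9.01%) had no read in C. Replication-dependent histone genes, most of whose transcripts lack a poly(A) tail, summed to 217 normalized counts in C and to 55790 to 80258 in the other 4 KO libraries. Nuclear noncoding RNAs summed to 780 in C, and one of them, Rn7sk, held 196343 and 220409 in KO EBs, 188949 and 201312 in KO ESC A and B and 5.55 in C. The part of library preparation or culture in these differences was not tested. The calls were therefore made both with all libraries and without the C libraries.

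Mettl3 itself served as a check on both KO groups. It held 154 and 147 normalized counts in KO EBs and 138, 134 and 131 in KO ESCs, at 0.16 (SE 0.16, adjusted p = 0.713), against 399 and 368 in WT EBs and 422, 392 and 425 in WT ESCs. All 5 KO libraries lay below all 5 WT libraries, and 18.4% of its exons overlap Tox4 on the other strand. Of 20 genes of the m6A machinery, 0 passed with all libraries, and 2 were higher and 7 lower without C, with a median of -0.11 (20.9% and 26.2% of all genes were higher and lower). Mettl14, the partner of Mettl3, held 224 and 270 in EBs, 152 and 141 in A and B and 328 in C, and rose by 0.75 without C. Wtap, a further subunit of the writer, held 1229 and 1324 in EBs and 2609, 2755 and 2763 in ESCs, at -1.09 (adjusted p = 0.18) and -1.07 without C. The reader gene Hnrnpa2b1 held 2060 and 2293 in EBs, 2838 and 2973 in A and B and 14426 in C, and fell by 0.42 without C.

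The comparison asks which transcripts change when cells without Mettl3 are moved from naive culture to embryoid bodies. With all 10 libraries in the fit, 74 genes were higher in KO EBs (0.47% of the genes tested) and 58 were lower (0.369%), by limma on log2 values with a Benjamini-Hochberg adjusted p under 0.05. Without the C libraries 3286 were higher (20.9%) and 4115 lower (26.2%), and all 74 and all 58 were among them with the same sign. Both fits use libraries A and B, so the second is not an independent check. The EB libraries lay above all 3 ESC libraries, C included, for 3305 genes (21.0%) and below all 3 for 3237 (20.6%). Of the 3286 genes higher without C, replicate C lay on the same side for 2224 (67.7%) and on the far side of both EB libraries for 909 (27.7%). Of the 4115 lower ones these were 2163 (52.6%) and 1766 (42.9%). Thus for many genes the direction depends on which ESC library the EBs are set against. The median log2 difference of all tested genes was 0.06 with all libraries and -0.06 without C. Leaving out KO ESC replicate C alone gave 489 higher and 462 lower genes, and leaving out WT ESC replicate C alone gave 466 and 417. Leaving out ESC library A or B of either genotype gave 0 calls in limma, with 1775 to 1875 genes at an unadjusted p under 0.05. Leaving out an EB library leaves a group with a single library, assumed to vary like the others. With all libraries edgeR called 138 higher and 54 lower, and it was not run with a library left out.

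**Figure D1:**
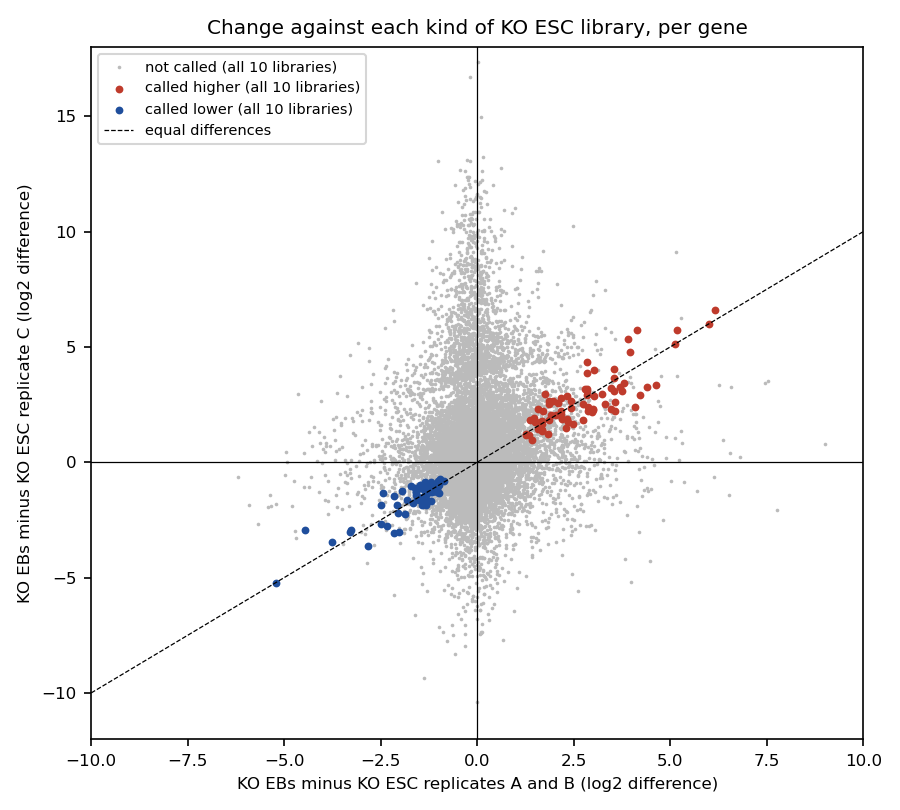
Each point is 1 of 15735 genes, with the log2 difference of KO EBs from KO ESC replicates A and B on the x axis and from replicate C on the y axis. The 74 genes called higher (red) and the 58 called lower (blue) lie near the line of equal differences, while uncalled genes (grey) spread far along the y axis near an x of 0.

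The genes with the largest calls were of mixed function. Among the 14 named by size on the higher side were Col6a4, Mmp9, Matn3 and Bgn, which encode proteins of the extracellular matrix or that cut it. The collagen VI chain gene Col6a4 (ENSMUSG00000032572, chromosome 9, 105989454 to 106096783, minus strand, GRCm38) held 160 and 174 normalized counts in KO EBs and 8.71, 5.45 and 16.7 in KO ESC A, B and C. On the log2 scale it rose by 4.02, with an SE of 0.51 and an adjusted p of 0.0286, and by 4.41 without C. The gelatinase gene Mmp9 (chromosome 2, 164940780 to 164955850, plus strand) held 221 and 174 in EBs against 14.7, 13.6 and 19.4 in ESCs and rose by 3.56 (SE 0.55, adjusted p = 0.0392), and by 3.70 without C, although with only genes of mean 50 or more tested its adjusted p was 0.06135. Matn3 (matrilin 3, of cartilage matrix) rose by 2.78 and the small proteoglycan gene Bgn by 2.74, and without C by 3.01 and 2.99. In each of these 4 genes both KO EB libraries lay above all 3 KO ESC libraries, which was a condition for naming by size.

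Cacng8, an auxiliary subunit of AMPA-type glutamate receptors (ENSMUSG00000053395, chromosome 7, 3390683 to 3415648, plus strand), held 166 and 135 normalized counts in KO EBs and 7.07, 3.63 and 13.9 in KO ESCs, and rose by 4.20 (SE 0.53, adjusted p = 0.0286), and by 4.62 without C. Cspg5, a brain chondroitin sulfate proteoglycan (ENSMUSG00000032482, chromosome 9, 110243783 to 110262576, plus strand), held 496 and 461 in EBs and 35.4, 33.6 and 55.5 in ESCs, and rose by 3.53 (SE 0.39, adjusted p = 0.0256), and by 3.76 without C. Ndrg2, a gene of the NDRG family (chromosome 14, 51905271 to 51914158, minus strand), held 156 and 159 against 13.1, 11.8 and 25 and rose by 3.24 (SE 0.36, adjusted p = 0.0256), and by 3.56 without C. In these 3 genes too the KO EBs lay above every KO ESC library, as naming by size required. In WT, Cspg5 held 32.2 and 27.5 in EBs and 40.8, 38.2 and 75.8 in ESCs, and Ndrg2 held 153 and 158 in EBs and 192, 178 and 260 in ESCs. The KO change exceeded the WT change by 4.23 for Cspg5 (adjusted p = 0.0388) and by 3.65 for Ndrg2 (adjusted p = 0.0493, and 0.05301 with no filter on the mean). So WT and KO EBs held near-equal Ndrg2, and the KO ESCs were the low group, whereas for Cspg5 the KO EBs were the high group. Also among the 14 were the guanine nucleotide exchange factor gene Arhgef28 at 3.69, the membrane protein gene Tmem151b at 3.79 and the asparaginase gene Aspg at 3.51, and without C at 3.81, 4.22 and 4.07. Of the Tmem151b exons, 15.1% lie over Tcte1 on the other strand, and the kit does not keep the strand, so its value is uncertain.

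The heat shock protein gene Hspa1a, an inducible Hsp70 (ENSMUSG00000091971, chromosome 17, 34969190 to 34972156, minus strand), also rose. It held 305 and 285 normalized counts in KO EBs and 26.7, 22.7 and 22.2 in KO ESCs, and rose by 3.58 (SE 0.29, adjusted p = 0.0199), and by 3.53 without C. Its near-identical neighbour Hspa1b held 386 and 299 in EBs and 65.8, 41.8 and 72.2 in ESCs, at 2.52 on the log2 scale with an adjusted p of 0.0898, and rose by 2.67 without C. How reads shared by the pair were counted is not known, and 19% of the Hspa1a exons overlap Gm20481 on the other strand, so both values are uncertain. Gm20481 itself, chosen after its values were seen, rose by 4.38 (adjusted p = 0.0265). The constitutive relative Hspa8 held 1852 and 1527 in EBs, 1370 and 1052 in ESC A and B and 35462 in C. The promoter of Hspa1a is printed because the gene passed with or without C and is a classic target of the heat shock factor, which binds repeats of GAA. It spans chr17:34972107-34972406 on the minus strand in RefSeq's GRCm38.p6 table, from 250 bases before the start to 50 after it, with capitals for a heat shock element core (GAANNTTC) and a CCAAT box (CCAAT or its complement ATTGG), both searched on both strands.
Hspa1a: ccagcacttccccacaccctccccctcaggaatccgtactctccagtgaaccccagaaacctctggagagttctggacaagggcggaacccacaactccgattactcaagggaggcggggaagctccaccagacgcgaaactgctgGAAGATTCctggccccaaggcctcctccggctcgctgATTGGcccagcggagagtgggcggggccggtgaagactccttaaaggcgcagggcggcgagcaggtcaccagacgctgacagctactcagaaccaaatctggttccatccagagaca
Of all 32851 promoters of that table and length, 7.86% hold GAANNTTC and 37.4% hold CCAAT, so these matches are a description and not evidence of binding.

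**Figure D2:**
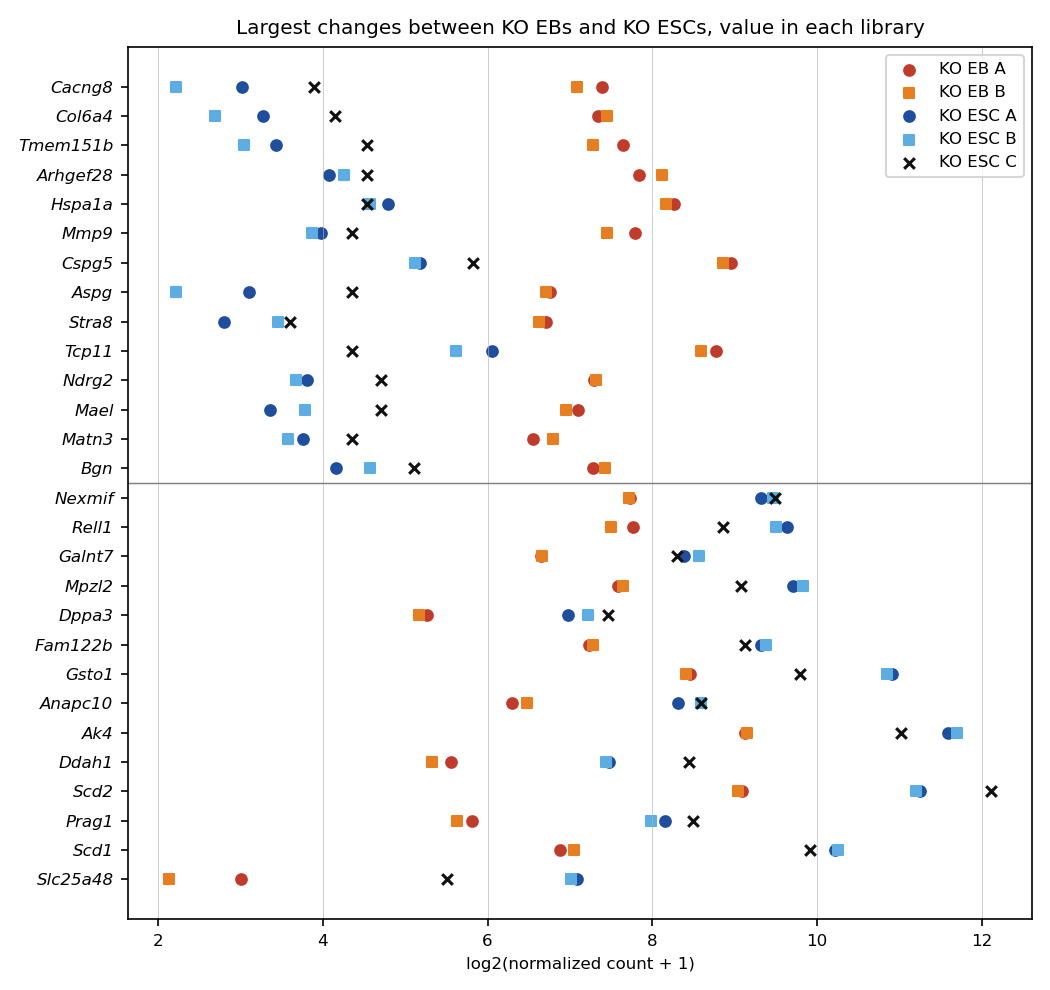
Values of the 28 genes with the largest called changes in each KO library, as log2(normalized count + 1), with circles and squares for replicates A and B and crosses for ESC replicate C. In the upper block the EB libraries (red and orange) lie above every ESC library, and in the lower block below every one, as the naming rule asks.

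Some germ cell genes were higher in KO EBs, while others were lower or not called. Of 18 listed genes of germ cells and meiosis 17 were tested. With all libraries 3 of them were called higher and 0 lower (0.47% of all tested genes were higher). Without C, 10 were higher and 3 lower (20.9% and 26.2% of all tested genes). Their median log2 difference was 0.95 with all libraries and 0.87 without C, against 0.06 and -0.06 for all tested genes. The summed level was 3430 and 3497 normalized counts in KO EBs, below KO ESC A and B (5785 and 5574) and above C (2930). A large part of this sum was Rpl10l, with 1492 and 1364 in KO EBs, 3538 and 3210 in KO ESC A and B and 936 in C. Stra8, which is induced by retinoic acid at the entry into meiosis (ENSMUSG00000029848, chromosome 6, 34920163 to 34939344, plus strand), held 104 and 97.6 normalized counts in KO EBs and 5.99, 9.99 and 11.1 in KO ESCs, and rose by 3.38 (SE 0.44, adjusted p = 0.0287), and by 3.54 without C. Mael, a protein of piRNA silencing (chromosome 1, 166201201 to 166238747, minus strand), held 136 and 122 against 9.25, 12.7 and 25 and rose by 3.07 (SE 0.42, adjusted p = 0.0315), and by 3.45 without C. Mov10l1, the helicase that feeds RNA into the piRNA pathway (chromosome 15, 88982909 to 89055152, plus strand), held 162 and 196 against 33.7, 30.9 and 27.8 and rose by 2.50 (SE 0.32, adjusted p = 0.0286), and by 2.43 without C. In all 3 genes both KO EB libraries lay above every KO ESC library, which was a condition for Stra8 and Mael, also named by size.

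Among the other germ cell genes, Dazl, an RNA-binding protein of germ cells, held 121 and 134 normalized counts in KO EBs and 31.6, 36.3 and 69.4 in KO ESCs. Its difference of 1.55 did not pass with all libraries (adjusted p = 0.0941) and was 1.88 without C (SE 0.15, adjusted p = 2.45e-05). Without C, Prdm1, a repressor needed to specify germ cells, rose by 3.09, Taf7l by 2.58 and the helicase gene Ddx4 by 1.28. With all libraries they stood at 2.43, 2.03 and 0.95 and did not pass (adjusted p = 0.118, 0.381 and 0.558). The receptor gene Kit fell by 2.02 without C and Tdrd12 fell by 1.74, and with all libraries they stood at -0.89 and -2.12 (adjusted p = 0.746 and 0.0779). Rpl10l, a testis copy of Rpl10 whose reads may be shared with it, fell by 1.24 without C and stood at -0.62 with all libraries (adjusted p = 0.678). Outside the list, Tcp11, of sperm, was among the 14 largest and rose by 3.34 (adjusted p = 0.0472), with 11.6% of its exons under another gene on the same strand. Sohlh2, a transcription factor of early germ cells chosen after its values were seen, held 166 and 172 against 38.6, 34.5 and 38.9 and rose by 2.15 (SE 0.24, adjusted p = 0.0262), and by 2.18 without C. The rise was not a gain over WT levels for all of them, since Mael held 202 and 196 in WT EBs and 163, 155 and 234 in WT ESCs. In WT EBs Mov10l1 held 181 and 186 and Dazl 552 and 700. Both also rose in WT without C, by 1.20 and 1.16. Stra8 held 18.4 and 20.7 in WT EBs. With all libraries the KO and WT changes did not differ at the threshold for Stra8 (4.08, adjusted p = 0.0585) or Mael (2.94, adjusted p = 0.133), and without C the differences were 4.46 (adjusted p = 5.35e-05) and 3.13 (adjusted p = 3.31e-05). For Mov10l1 and Dazl they did not differ with all libraries either (1.04 and 0.28). Without C those differences were 1.23 (adjusted p = 0.00228) and 0.73 (adjusted p = 0.0302).

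The promoters of the 3 called germ cell genes are shown because many germ cell genes are held off in other cells at an E-box (CACGTG) bound by a PRC1-type repressor complex. They run from 250 bases before to 50 after the RefSeq start in GRCm38.p6, at chr1:166238695-166238994 (minus strand, Mael), chr15:88982744-88983043 (plus strand, Mov10l1) and chr6:34920698-34920997 (plus strand, Stra8). Capitals mark CACGTG, which is its own complement, and CCAAT or ATTGG.
Mael: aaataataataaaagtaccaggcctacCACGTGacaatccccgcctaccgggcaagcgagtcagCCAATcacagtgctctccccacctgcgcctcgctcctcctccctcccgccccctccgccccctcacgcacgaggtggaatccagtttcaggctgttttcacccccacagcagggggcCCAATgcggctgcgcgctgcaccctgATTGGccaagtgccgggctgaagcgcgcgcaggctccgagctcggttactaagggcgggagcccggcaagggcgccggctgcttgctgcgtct
Mov10l1: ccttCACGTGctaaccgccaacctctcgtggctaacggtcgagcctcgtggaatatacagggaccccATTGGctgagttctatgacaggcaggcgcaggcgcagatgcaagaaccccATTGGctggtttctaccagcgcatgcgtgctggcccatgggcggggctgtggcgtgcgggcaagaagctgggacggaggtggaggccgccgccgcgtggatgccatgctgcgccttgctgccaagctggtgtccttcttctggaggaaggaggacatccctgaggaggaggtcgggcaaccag
Stra8: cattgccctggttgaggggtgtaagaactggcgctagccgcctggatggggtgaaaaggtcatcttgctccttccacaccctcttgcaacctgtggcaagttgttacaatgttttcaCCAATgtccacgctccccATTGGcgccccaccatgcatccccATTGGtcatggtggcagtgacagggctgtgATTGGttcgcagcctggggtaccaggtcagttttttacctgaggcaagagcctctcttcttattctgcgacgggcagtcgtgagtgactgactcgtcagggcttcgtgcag
Of 16 tested germ cell genes with a promoter in the table, 8 hold CACGTG, against 7.15% of all promoters. It is present in 6 of the 10 genes higher without C and in 2 of the other 6. CCAAT is present in 7 of those 10 and in 0 of the other 6, against 37.4% of all promoters. Further motifs were searched in the same genes. An E2F-type site (TCCCGC or its complement GCGGGA) is present in 4 of those 10 and in 3 of the other 6. A TATA box (TATAAA or its complement TTTATA) is present in 1 of those 10 and in 1 of the other 6, as is GAANNTTC. Stra8 has no CACGTG in this window, which says nothing of the rest of the gene. Its window starts at 34920698, inside the gene span given above, which starts at 34920163. The bases before that gene start were not searched. The genes were split by calls from these same data, so these matches are a description and not evidence of binding. Repression at these sites was not tested.

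Pluripotency genes stayed detectable in KO EBs, and most naive factors were lower than in ESC replicates A and B. Of 20 naive genes tested, 0 were called higher and 1 lower with all libraries (0.47% and 0.369% of all genes). Without C, 4 were higher and 14 lower (20.9% and 26.2% of all genes), and the list's median was -0.51 with all libraries and -0.74 without C. The 4 higher ones were Gbx2 (2.64), Tcl1 (1.33), Dppa5a (0.56) and Pecam1 (0.54), at 1.85, 0.97, -0.06 and 1.06 with all libraries. The gene that passed in both was Dppa3, known as Stella, which shields maternal methylation marks (ENSMUSG00000046323, chromosome 6, 122626410 to 122630272, plus strand). It held 37.4 and 34.8 normalized counts in KO EBs and 125, 148 and 175 in KO ESCs, and fell by 2.00 (SE 0.28, adjusted p = 0.0326). Its difference was -1.88 without C. Nanog, a core naive factor (chromosome 6, 122707489 to 122714633, plus strand), held 1494 and 1656 in EBs and 3386, 3768 and 6080 in ESCs. The groups did not overlap, yet its difference of -1.44 did not pass (SE 0.40, adjusted p = 0.154), and without C it was -1.18 (SE 0.11, adjusted p = 6.43e-05).

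Other naive factors lost their separation once replicate C was counted. Klf4 held 2134 and 1798 in KO EBs, 5434 and 4617 in ESC A and B, and 1708 in C, below both EB libraries. Tfcp2l1 held 2402 and 2421 in EBs against 6553 and 6758 in A and B, and 1561 in C. Esrrb held 4586 and 4399 in EBs against 8803 and 8050 in A and B, and 4585 in C. These 3 fell without C by 1.35, 1.46 and 0.91, and stood at -0.84, -0.77 and -0.61 with all libraries (adjusted p = 0.509, 0.644 and 0.585). Zfp42 (Rex1), a common marker of naive cells, was level between EBs (1112 and 1190) and ESC A and B (1213 and 1206), with 4477 in C, at -0.07 without C (adjusted p = 0.485). In WT, Zfp42 fell by 0.91 without C, and the KO change lay above the WT change by 0.84 (adjusted p = 0.000664). Over the naive list, without C, the KO change lay above the WT change for 8 genes and below it for 1 (16.1% and 19.5% of all tested genes lay above and below). With all libraries 0 of the 20 differed (0.0318% of all genes lay above and 0.197% below).

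Of the general pluripotency factors, Pou5f1 (Oct4) held 5876 and 5160 normalized counts in KO EBs and 9512, 8389 and 18170 in KO ESCs. It stood at -1.04 (SE 0.55, adjusted p = 0.485) and at -0.70 without C (adjusted p = 0.000514), with 14.1% of its exons over Gm19553 on the other strand. Sox2 held 11458 and 8805 in EBs against 11678, 9072 and 4080 in ESCs, at 0.41 (adjusted p = 0.754) and -0.04 without C (adjusted p = 0.893). Of 14 such genes, 0 passed with all libraries, and without C 8 were higher and 3 lower (20.9% and 26.2% of all genes), with medians of 0.23 and 0.40. The higher ones included Lin28a, the let-7 binding protein, with 434 and 449 in EBs, 16.9 and 12.7 in ESC A and B and 2508 in C. Utf1, a chromatin-bound factor of pluripotent cells, held 1263 and 1004 in EBs and 189 and 130 in A and B, and C again lay above the EBs at 2064. For Lin28a and Utf1 the KO EBs therefore sat between ESC libraries A and B and ESC library C. Chosen after its values were seen, Socs3, a feedback inhibitor induced by LIF and STAT3, held 427 and 336 in EBs and 935, 775 and 869 in ESCs, and fell by 1.18 (SE 0.18, adjusted p = 0.0381).

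**Figure D3:**
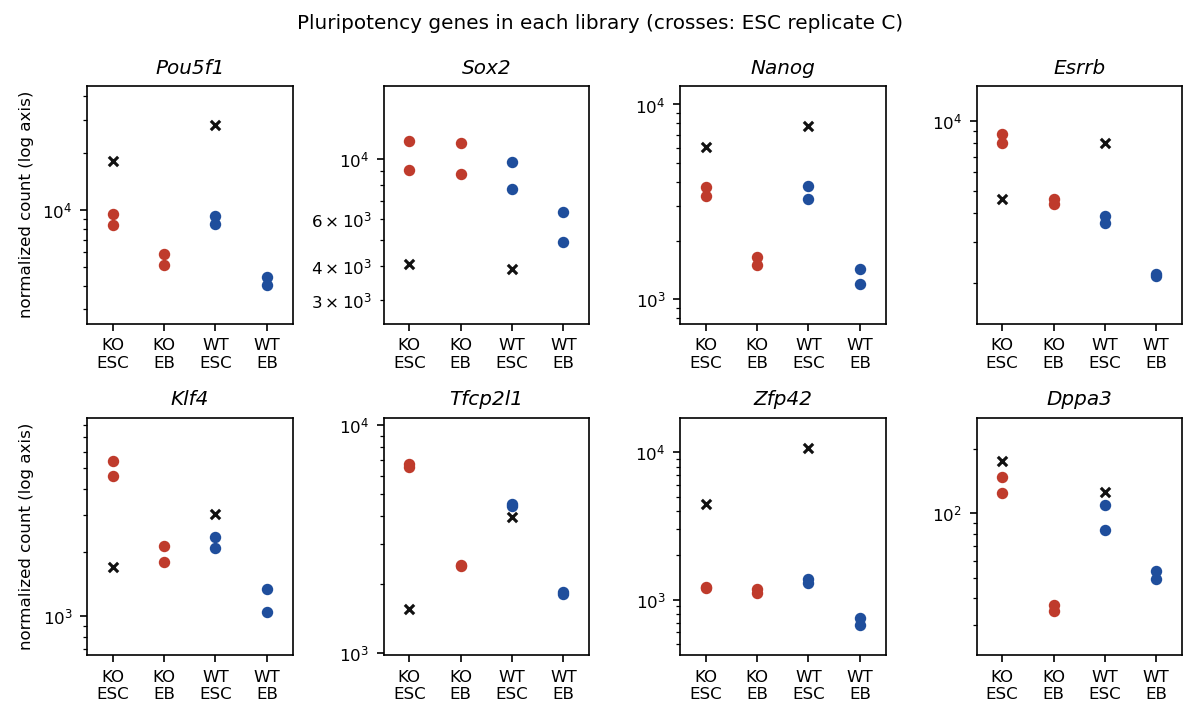
Normalized counts (log axis) of 8 pluripotency genes in each KO (red) and WT (blue) library, with crosses for ESC replicate C. Nanog and Dppa3 are lower in both KO EB libraries than in all 3 KO ESC libraries, while the KO cross lies below the KO EB points for Klf4 and Tfcp2l1. In WT the cross lies above the EB points for both genes.

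Targets of ERK signalling, which PD0325901 blocks in the ESC medium, were higher in KO EBs than in ESC A and B. Of 15 listed targets 0 passed with all libraries, and without C 12 were higher and 1 lower (20.9% and 26.2% of all genes), with medians of 0.51 and 1.66. The list summed to 5971 and 5503 normalized counts in KO EBs, 3834 and 3528 in KO ESC A and B, and 10435 in C. Dusp6, a phosphatase that dampens ERK, held 596 and 555 in EBs, 20.7 and 16.3 in A and B, and 500 in C, and rose by 4.89 without C (SE 0.13, adjusted p = 1.75e-07). Etv4, an ETS factor downstream of FGF, held 795 and 664 in EBs, 25 and 18.2 in A and B, and 1266 in C. Dusp4 held 810 and 628 in EBs and 46.8, 48.1 and 128 in ESCs, with no overlap, and stood at 3.41 (adjusted p = 0.0508) and at 3.88 without C. Etv5 went the other way, with 1139 and 1085 in EBs and 2809, 2505 and 2250 in ESCs, at -1.17 (adjusted p = 0.102), and fell by 1.25 without C. The WT median without C was 1.43. Chosen after their values were seen, the Nodal inhibitors Lefty1 (785 and 793 in EBs, 5.99 and 9.08 in A and B, 600 in C) and Lefty2 (554 and 664 in EBs, 11.4 and 9.99 in A and B, 1455 in C) lay far above A and B.

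Markers of extraembryonic endoderm changed in both directions in KO EBs, and for many of them the change lay below that in WT. In bulk RNA, fewer cells of a type and less RNA per cell cannot be told apart. Of 10 primitive endoderm factors tested, 0 passed with all libraries, and without C 4 were higher and 3 lower (20.9% and 26.2% of all genes). The median KO change was -0.09, and 0.03 without C, against 5.00 in WT without C. The difference between the KO and WT changes was called for 2 of the 10 with all libraries, and without C 9 lay below (19.5% of all tested genes lay below). Gata4, a master factor of this layer (ENSMUSG00000021944, chromosome 14, 63198922 to 63271692, minus strand), held 38.8 and 24.6 normalized counts in KO EBs and 59.3, 55.4 and 27.8 in KO ESCs. In WT it held 999.9 and 832 in EBs and 23.6, 26.7 and 19.8 in ESCs. The KO change was -0.53 (adjusted p = 0.654), and the KO change minus that of WT was -5.77 (SE 0.58, adjusted p = 0.0115). Dab2, an endocytic adaptor of this layer, was the second one called, with 24.0 and 22.9 in KO EBs, 60.9, 72.7 and 36.1 in KO ESCs and 889 and 994 in WT EBs.

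Gata6 held 13.4 and 15.3 normalized counts in KO EBs and 627 and 545 in WT EBs, and the KO change minus the WT change was -4.95 without C (adjusted p = 3.44e-06, and 0.227 with all libraries). Sox17 (16.8% of its exons over Gm37587 on the other strand) held 11.3 and 10.2 in KO EBs and 1695 and 1223 in WT EBs. It held 40.8 and 40.0 in KO ESC A and B and 2.78, a single read, in C. Without C it fell by 1.82 in KO (adjusted p = 9.63e-05), and with all libraries it stood at -0.67 (adjusted p = 0.774). Pdgfra, a receptor shared with mesoderm, was among the 4 called higher without C. It held 77.7 and 101 in KO EBs and 29.9, 25.4 and 11.1 in KO ESCs, and rose by 1.65 without C. In WT EBs it held 1309 and 1455. The others called higher without C were Foxq1 (1.70), Hnf4a (0.77) and Sall4 (0.46).

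The basement membrane genes of parietal endoderm moved both ways in KO, while their median in WT was positive. Of 12 tested, 0 passed with all libraries, and without C 5 were higher and 6 lower (20.9% and 26.2% of all genes). The median KO change was -0.46, and -0.90 without C, against 2.82 in WT without C. The KO change lay below the WT change for 5 of the 12 with all libraries (0.197% of all genes) and for 11 without C (19.5%). Lama1, a laminin chain (ENSMUSG00000032796, chromosome 17, 67697259 to 67822647, plus strand), held 176 and 186 normalized counts in KO EBs, 1726 and 1795 in KO ESC A and B, and 289 in C. Without C it fell by 3.28 (SE 0.07, adjusted p = 5.29e-08), and with all libraries it stood at -2.41 (adjusted p = 0.219). Lamb1 held 591 and 588 in KO EBs, 1366, 1391 and 1264 in KO ESCs and 24609 and 24940 in WT EBs, and the KO change minus that of WT was -5.79 (adjusted p = 0.00742). The collagen IV gene Col4a1 held 864 and 895 in KO EBs and 392, 369 and 639 in KO ESCs, and 49822 and 49659 in WT EBs, with a difference of -5.73 (adjusted p = 0.0115). Col4a1 and its partner Col4a2 rose in KO EBs without C, by 1.21 and 0.68. The 5 members whose KO change was called below the WT change were Lamb1, Col4a1, Col4a2, Sparc and the activin inhibitor Fst.

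Of 8 visceral endoderm genes tested, 0 passed with all libraries, and without C 4 were higher and 2 lower (20.9% and 26.2% of all genes), with medians of 0.62 and 0.77 against 3.81 in WT without C. The endocytic receptor gene Lrp2 held 665 and 705 normalized counts in KO EBs and 114, 108 and 211 in KO ESCs, and rose by 2.61 without C (adjusted p = 2.32e-07). It held 5906 and 6409 in WT EBs. The 2 lower without C were Cyp26a1 (-0.97) and Rhox5 (-0.37). Also higher without C were Cldn6 (1.47) and the carrier genes Apob and Rbp4. With C counted, Cldn6 averaged 125 in KO EBs and 154 in KO ESCs. Apob held 30.4 and 36.5 in KO EBs, 1.09 and 0 in A and B, 36.1 in C and 313 and 425 in WT EBs. Rbp4 held 18.4 and 12.7 in KO EBs, 0 and 0.908 in A and B, 19.4 in C and 118 and 115 in WT EBs. Apoe held 13280 and 11914 in KO EBs and 12609, 11272 and 2719 in KO ESCs, at 0.79 (adjusted p = 0.644). Afp, the fetal serum carrier of visceral endoderm, was under the mean filter, with no read in KO EBs, KO ESC A or KO ESC B and 5.55 in C, against 405 and 473 in WT EBs. Genes that rise only in WT can be missing here, since the filter uses KO means.

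**Figure D4:**
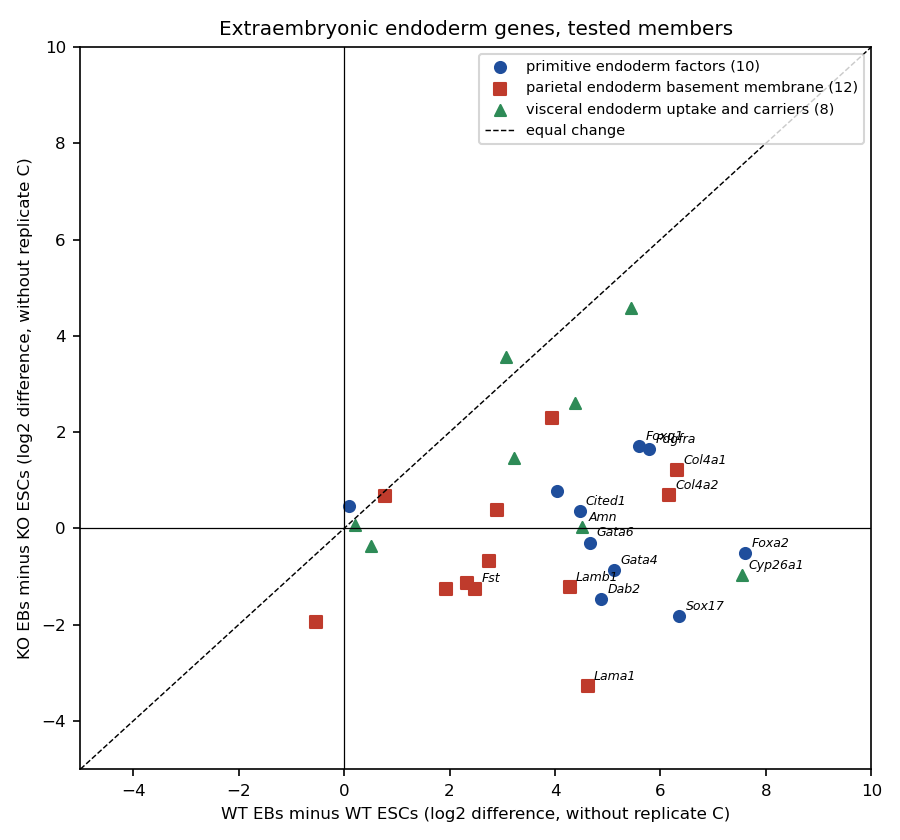
Log2 difference of EBs from ESCs in WT (x axis) and in KO (y axis), both without the C libraries, for the tested members of 3 endoderm lists. Most points lie to the right of the dashed line of equal change, with Lama1 at -3.28 in KO, and Gata4, Gata6 and Sox17 at or below 0.

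The keratins of simple epithelium, which also mark endoderm and trophectoderm, also changed differently in KO and WT. Krt8 (ENSMUSG00000049382, chromosome 15, 101996698 to 102004482, minus strand) held 203 and 196 normalized counts in KO EBs and 313, 335 and 719 in KO ESCs. In WT it held 3989 and 4132 in EBs and 66.5, 76.3 and 98.8 in ESCs. The KO change was -1.08 (adjusted p = 0.242), and the KO change minus that of WT was -6.74 (SE 0.51, adjusted p = 0.00819). Its partner Krt18 held 292 and 312 in KO EBs and 183, 203 and 447 in KO ESCs, against 3268 and 3575 in WT EBs, and the KO change minus that of WT was -4.99 (SE 0.52, adjusted p = 0.0143). Cdh1, the epithelial cadherin, held 2379 and 2389 in KO EBs and 6013, 5864 and 3375 in KO ESCs, at -1.04 (adjusted p = 0.166) and -1.32 without C. Of 13 genes of this list 0 passed with all libraries, and 4 were higher and 6 lower without C (20.9% and 26.2% of all genes). The median was -0.50 with all libraries and -0.19 without C, against 0.84 in WT without C. Cdx2, of trophectoderm, was under the mean filter, with no read in either EB library and 10.9, 9.99 and 8.33 in KO ESCs.

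Across the difference test as a whole, 5 genes had a KO change above the WT change (0.0318%) and 31 a KO change below it (0.197%) with all libraries. Without C these were 2529 (16.1%) and 3072 (19.5%). Without C the median absolute log2 change was 0.381 in KO and 0.376 in WT, and 17.2% and 15.6% of genes differed by more than 1. More than 3 lower were 94 genes in KO and 28 in WT, and more than 3 higher were 195 and 185. The filter uses KO means, so genes expressed only in WT are left out while genes expressed only in KO are kept. These figures therefore cannot show whether KO or WT changed more. Among the 5 above were Cspg5 and Ndrg2, already given, and, chosen after their values were seen, the oligodendrocyte factor Olig1 (2.93), the neuronal pentraxin Nptx2 (3.19) and Ooep (1.89), of the egg.

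Early germ layer genes outside endoderm moved both ways and none passed with all libraries. Of 13 neural genes, 7 were higher and 3 lower without C (20.9% and 26.2% of all genes), with medians of 0.46 with all libraries and 0.67 without C, against -0.46 in WT without C. The neuronal tubulin gene Tubb3 held 602 and 469 normalized counts in KO EBs, 124 and 99.0 in KO ESC A and B, and 636 in C. Stmn2, of growing axons, held 748 and 796 in EBs, 131 and 115 in A and B, and 2105 in C. Without C they rose by 2.25 and 2.64. Sox1, of the neural plate, held 120 and 87.5 in EBs and 44.1, 48.1 and 5.55 in ESCs, and stood at 2.08 (adjusted p = 0.339) and 1.14 without C (adjusted p = 0.0131). Nes, of neural progenitors, was lower, with 139 and 124 in EBs against 418, 403 and 325, at -1.52 (adjusted p = 0.154) and -1.64 without C. Pax6 held 2.12 and 2.55 in EBs, 2.18 and 4.54 in A and B and 38.9 in C, near the floor outside C. Thus Tubb3 and Stmn2 had C above both EB values, while Sox1 and Nes had both EB libraries on 1 side of all ESC libraries.

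Of 8 early mesoderm genes tested, 3 were higher and 3 lower without C (20.9% and 26.2% of all genes). Eomes held 167 and 145 normalized counts in KO EBs, 75.1 and 67.2 in ESC A and B and 236 in C, and rose by 1.12 without C (adjusted p = 0.000745, and 0.723 with all libraries). The caudal factor Cdx1 held 155 and 86.6 in EBs and 64.2, 60.8 and 33.3 in ESCs, a difference of 1.18 that did not pass (adjusted p = 0.441, and 0.149 without C). T (brachyury), Mixl1, the epiblast gene Fgf5 and the troponin gene Tnnt2 were under the mean filter, with at most 6.79 in any KO EB library. Of 13 primed epiblast genes 6 were higher and 3 lower without C, with medians of 0.18 and 0.59. Otx2, needed to leave the naive state, held 33.9 and 30.6 in KO EBs and 124, 122 and 52.8 in KO ESCs. It stood at -1.50 (adjusted p = 0.311) and fell by 1.90 without C, while WT EBs held 235 and 245 and WT ESCs 80.1, 48.1 and 175. Dnmt3b, a de novo methyltransferase, held 448 and 460 in EBs and 405, 384 and 1405 in ESCs, at -0.41 (adjusted p = 0.771) and 0.20 without C (adjusted p = 0.0632). Of 9 cardiac and smooth muscle genes 3 were higher and 2 lower without C, and the giant sarcomere protein gene Ttn held 1435 and 1694 in EBs, 1954 and 2244 in A and B and 231 in C. Of 10 blood and endothelium genes 4 were higher and 1 lower, with Pecam1 at 0.54, and of 7 Hox genes 0 were higher and 3 lower, with Hoxb9 at 0.20 (adjusted p = 0.418), all without C.

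Fibroblast and matrix genes were mixed, and some had opposite signs with and without replicate C. These were Col1a1, Col5a1, Col5a2, Fn1, Dcn, Fbn1 and Lox, while Col3a1 was negative and Col6a1 positive in both. Col1a1 held 401 and 373 normalized counts in KO EBs, 1389 and 1311 in KO ESC A and B, and 16.7 in C. It stood at 0.28 with all libraries (adjusted p = 0.954) and fell without C (adjusted p = 1.75e-06). Col3a1 held 736 and 752 in EBs, 6222 and 6532 in A and B, and 19.4 in C, and fell by 3.10 without C. The 22 genes of this list summed to 16073 and 16092 in KO EBs, 26185 and 26242 in KO ESC A and B, and 4891 in C. All 22 were tested, and 0 passed with all libraries. Without C, 10 were higher and 10 lower (20.9% and 26.2% of all genes). Among the higher ones were the collagen VI chain gene Col6a1 (1017 and 1040 in EBs, 241, 213 and 19.4 in ESCs) and the surface glycoprotein gene Thy1 (127 and 122 in EBs, 29.4, 30.9 and 97.2 in ESCs). Fibronectin (Fn1) held 7545 and 7828 in EBs and 9606, 9672 and 1941 in ESCs. The part of fibroblasts in the ESC A and B libraries was not tested.

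Most lipid synthesis genes were lower in KO EBs without replicate C, led by the stearoyl-CoA desaturases, which make monounsaturated fatty acids. Scd1 (ENSMUSG00000037071, chromosome 19, 44394455 to 44407879, minus strand) held 117 and 132 normalized counts in KO EBs and 1189, 1215 and 967 in KO ESCs, and fell by 3.16 (SE 0.41, adjusted p = 0.0287). Without C its difference was -3.27. Scd2 (chromosome 19, 44293674 to 44306864, plus strand) held 541 and 526 against 2437, 2358 and 4416 and fell by 2.46 (SE 0.27, adjusted p = 0.0256). Without C its difference was -2.17. In both genes the KO EBs lay below every KO ESC library, as naming by size required, and the WT changes were -3.24 and -2.64. Of the 20 genes of cholesterol and fatty acid synthesis, which hold Scd2 but not Scd1, 0 were higher and 1 lower with all libraries, and 1 was higher and 13 lower without C (20.9% and 26.2% of all genes). The median was -0.51 with all libraries and -0.41 without C, against -1.09 in WT without C. Fasn, fatty acid synthase, held 1898 and 1786 in EBs and 3325, 3150 and 3186 in ESCs, at -0.81 (SE 0.16, adjusted p = 0.0652) and -0.81 without C (adjusted p = 5.17e-05). Without C, 14 of the 20 had a KO change above the WT change (16.1% of all genes lay above) and 1 below.

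Other genes named by size on the lower side covered transport, nucleotides and detoxification. The mitochondrial carrier gene Slc25a48 held 7.06 and 3.40 normalized counts in KO EBs and 134, 128 and 44.4 in KO ESCs, and fell by 3.96 (SE 0.63, adjusted p = 0.0439). Without C it was at -4.47. Ak4, a mitochondrial adenylate kinase (chromosome 4, 101419277 to 101466995, plus strand), held 558 and 566 against 3074, 3320 and 2064 and fell by 2.29 (SE 0.28, adjusted p = 0.0265). Without C it was at -2.50. Gsto1, a glutathione transferase, held 351 and 339 against 1915, 1845 and 883 and fell by 2.08. Without C it was at -2.44. Also lower were Ddah1, which breaks down methylarginines (-2.35), Prag1 (-2.49) and Anapc10, a subunit of the anaphase-promoting complex (-2.10). The rest were Fam122b (-2.01), the adhesion gene Mpzl2 (-1.92, with 30.7% of its exons over Gm48840 on the other strand), the glycosyltransferase gene Galnt7 (-1.77), Rell1 (-1.70) and Nexmif (-1.70). With TMM scaling in place of the deposited scaling, Slc25a48, Gsto1, Galnt7, Rell1, Tcp11 and Aspg no longer passed (adjusted p = 0.05098 to 0.05932). In WT, Ak4 stood at 0.01, and the KO change minus the WT change was -2.31 with an adjusted p of 0.0793 (3.1e-06 without C).

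Of 20 oxidative phosphorylation genes, 0 passed with all libraries, and 1 was higher and 14 lower without C (20.9% and 26.2% of all genes), with medians of -0.57 and -0.38 and -0.40 in WT. For 19 of the 20 both EB libraries lay below all 3 ESC libraries, against 20.6% of all tested genes. Atp5b, the beta subunit of ATP synthase, held 11862 and 12163 normalized counts in EBs and 16584, 16911 and 13487 in ESCs, at -0.38 (adjusted p = 0.364) and -0.48 without C. Of 21 DNA replication genes, 3 were higher and 12 lower without C, with 12 of 21 below all ESC libraries and Mcm5 at -0.31. Of 17 mitosis genes 1 was higher and 5 lower without C, with Top2a at 0.27 (adjusted p = 0.129). Of 20 glycolysis and hypoxia genes 8 were higher and 4 lower without C, with Pkm at 0.08 (adjusted p = 0.55). Pdk1, which steers pyruvate away from mitochondria, rose by 1.89 without C, and Ldha, lactate dehydrogenase, fell by 1.14. With all libraries they stood at 1.59 and -1.78 (adjusted p = 0.39 and 0.381). Cytosolic ribosomal protein genes had a median of -1.17 with all libraries and -0.13 without C, where 0 were higher and 1 lower of 20. Their sum in C was 280410 normalized counts, against 76930 to 83952 in the other 4 KO libraries.

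Most listed genes of the unfolded protein response and of secretion were called higher in KO EBs once replicate C was left out, but not with all libraries. Xbp1, whose spliced form drives this response (ENSMUSG00000020484, chromosome 11, 5520659 to 5525893, plus strand), held 1282 and 1227 normalized counts in KO EBs and 378, 324 and 542 in KO ESCs, and rose by 1.63 (SE 0.23, adjusted p = 0.0326), and by 1.84 without C. Of 18 listed genes of ER stress and folding, 1 was higher and 0 lower with all libraries, and 14 were higher and 2 lower without C (20.9% and 26.2% of all genes). The median was 0.14 with all libraries and 0.52 without C, against 0.13 in WT without C. The 2 called lower without C were Asns (-1.58) and Pdia3 (-0.36), at -0.97 and -1.35 with all libraries, where neither was called. The chaperone gene Hspa5 (BiP) held 8559 and 9215 in EBs, 4774 and 4981 in A and B and 10637 in C, and rose by 0.86 without C (adjusted p = 2.52e-05). Chosen after their values were seen, Derl3, of ER-associated degradation, rose by 2.08 (adjusted p = 0.0475) and Kdelr3, a retrieval receptor, by 2.15 (adjusted p = 0.0462). Txnip, a thioredoxin inhibitor, was picked the same way, with 4717 and 5231 in EBs and 936, 1027 and 1503 in ESCs, and rose by 2.13 (SE 0.31, adjusted p = 0.036).

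Of 18 targets of p53, 0 passed with all libraries, and 0 were higher and 10 lower without C (20.9% and 26.2% of all genes), with medians of -0.35 and -0.37, against 0.40 in WT without C. Ccng1 held 1929 and 2180 normalized counts in KO EBs and 3302, 3608 and 2758 in KO ESCs, at -0.64 (adjusted p = 0.154) and -0.75 without C (adjusted p = 0.00069). In WT it rose by 0.59 without C, and the KO change minus that was -1.34 (adjusted p = 0.00034). The p53 target and antiproliferative gene Btg2 held 335 and 301 in KO EBs and 906, 866 and 983 in KO ESCs, and 1158 and 1091 in WT EBs. Of 10 immediate early genes 4 were higher and 3 lower without C, with Jund at 0.89 (adjusted p = 0.0559). Of the Jund exons, 52.6% overlap Gm11175 on the other strand.

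The DNA methylation genes moved both ways. Uhrf1, which brings the maintenance methyltransferase to newly copied DNA (ENSMUSG00000001228, chromosome 17, 56303321 to 56323486, plus strand), held 1085 and 1004 normalized counts in KO EBs and 2969, 2929 and 3250 in KO ESCs. It fell by 1.54 (SE 0.25, adjusted p = 0.0444, and 0.06067 in edgeR), against -1.66 in WT, and without C its difference was -1.50. Dnmt3l, the cofactor of de novo methylation, held 1903 and 1881 in EBs, 486 and 521 in A and B and 4480 in C, and rose by 1.91 without C (0.86 with all libraries, adjusted p = 0.779). Tet2, which oxidises methylcytosine, held 2052 and 2219 in EBs, 5134 and 5464 in A and B and 233 in C, and fell by 1.31 without C (0.19 with all libraries, adjusted p = 0.951). Its relative Tet1 rose without C, by 0.45, and stood at 0.51 with all libraries (adjusted p = 0.183). Of 12 genes of this list, 0 were higher and 1 lower with all libraries, and 4 and 6 without C (20.9% and 26.2% of all genes). Trim28, a corepressor that protects imprints, stood at -0.54 (adjusted p = 0.236) and at -0.51 without C. Of 21 imprinted genes 0 passed with all libraries, and 9 were higher and 8 lower without C. H19 held 304 and 237 in KO EBs and 377, 331 and 2486 in KO ESCs, and 10244 and 9218 in WT EBs. Igf2 held 20.5 and 12.7 in KO EBs and 27.2, 31.8 and 175 in KO ESCs, with 64.5% of its exons shared with Gm49394 on the same strand. Igf2r, which clears that growth factor, fell by 0.48 without C and stood at 0.70 with all libraries (adjusted p = 0.785).

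Retinoic acid genes included Stra8, the 1 call of 13 with all libraries, and 6 were higher and 4 lower without C (20.9% and 26.2% of all genes). The receptor gene Rarg held 963 and 958 normalized counts in KO EBs, 280 and 266 in KO ESC A and B, and 1647 in C, and rose by 1.81 without C (0.95 with all libraries, adjusted p = 0.764). The binding protein gene Crabp1 held 212 and 169 in EBs and 47.9, 37.2 and 97.2 in ESCs, at 1.74 (adjusted p = 0.14) and 2.14 without C, while Aldh1a2, which makes retinoic acid, fell by 2.07 without C and stood at -1.37 with all libraries (adjusted p = 0.452). Of 10 Wnt targets, 2 were higher and 1 lower without C, with Ccnd1 at 0.19 (adjusted p = 0.0717). Of 3 tested genes of the 2-cell-like state, 2 Zscan4 genes were higher and Eif1a lower (-0.52) without C, and copies of these genes share reads. None of the 3 passed with all libraries. Both Zscan4 genes were low, and with C counted Zscan4d averaged 27.9 in KO EBs and 8.51 in KO ESCs. Zscan4f averaged 12.2 in KO EBs and 13.9 in KO ESCs, so its KO ESC mean lay above that of KO EBs.

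**Figure D5:**
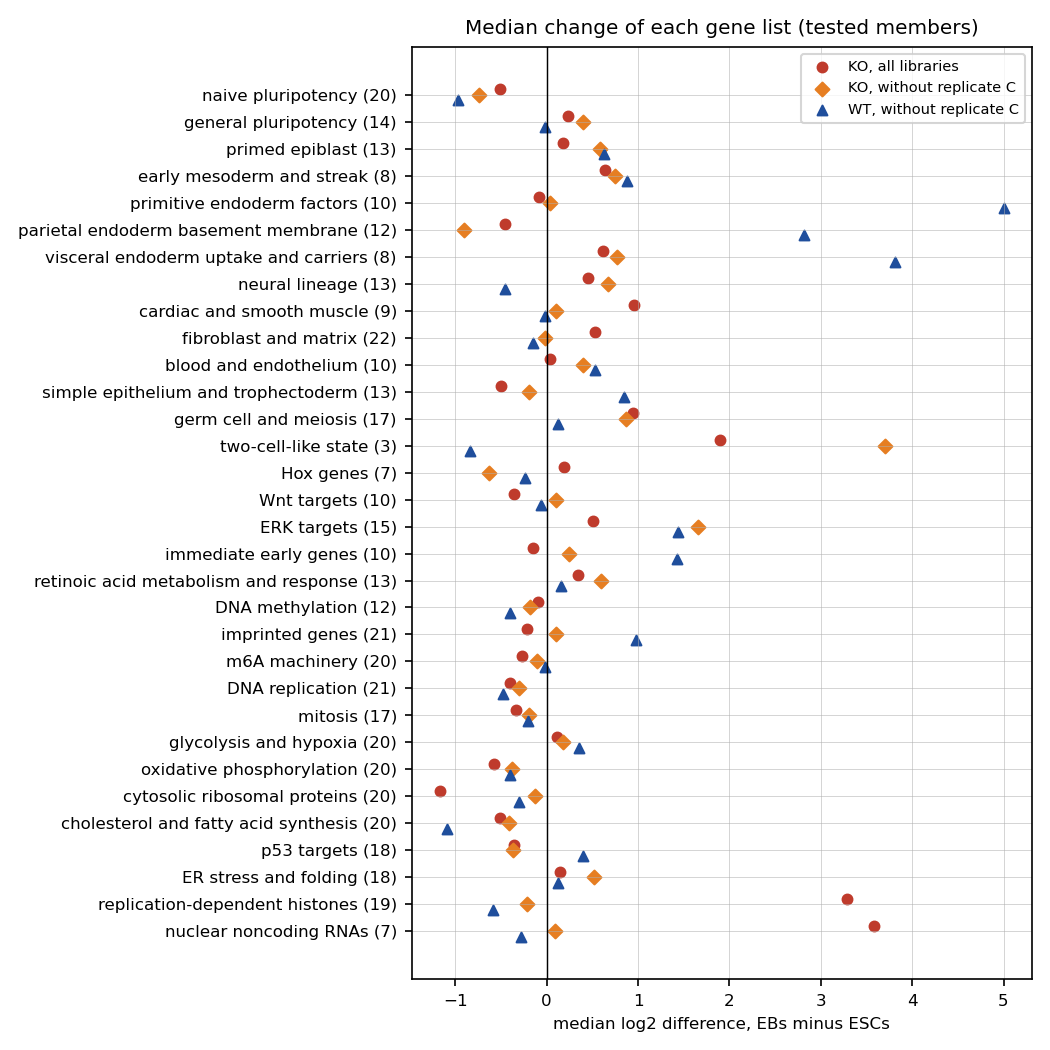
Median log2 difference of EBs from ESCs over the tested members of 32 gene lists (number of members in brackets), for KO with all libraries (circles), KO without replicate C (diamonds) and WT without replicate C (triangles). The 3 endoderm lists have WT medians of 5.00, 2.82 and 3.81 against KO medians from -0.90 to 0.77, and the histone and noncoding RNA lists have KO medians of 3.29 and 3.59 with all libraries and of -0.22 and 0.09 without C.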

How the data were processed

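The labels' protocols describe poly(A) RNA-seq with a TruSeq RNA kit v2. Histone transcripts, most without a poly(A) tail, summed to 55790 to 80258 in KO EBs and KO ESC A and B, and to 217 in C. Whether the same selection was used for all libraries was not tested. Build mm10 and these tools are listed, per the submitters' processing notes: DESeq, HTSeq 0.6.0, TopHat2 2.0.10, CASAVA 1.8.2 and Bowtie. The annotation release and the strand setting are not given in the sources used here. The deposited table holds normalized counts (a signal per gene), which are read counts the authors divided by 1 size factor per library. Division by the smallest value of each column gave whole reads for 100% of values within a tolerance of 0.01. Of 39179 identifiers 37607 matched GENCODE M21 (GRCm38), which gave names and coordinates, and 5 summary lines were left out. The fibroblast sample of the series is not analysed here.

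After a pseudocount of 1 was added, log2 values were fitted with limma 3.58.1 (R 4.3.3), with 4 group means over 10 libraries, trended robust variances and 6 residual degrees of freedom, or 8 libraries and 4 degrees without the C libraries. The spread is pooled over the 4 groups, since each has 2 or 3 libraries. P-values are two-sided, adjusted by Benjamini-Hochberg over 15735 genes, with a threshold of 0.05. The difference of the KO and WT changes is a contrast of the same fit. Low genes have understated fold changes on this scale. Group levels of single genes are given per library, and SE values come from the fit. The fit was also run on simulated counts with the same dispersion for all genes. That outcome is not given here and is no check of these calls.

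The comparison, the 32 gene lists and the alternatives were chosen with earlier results of these data known. Named were, per direction, the 14 largest differences among genes called in both fits whose higher KO group averaged at least 100, with no overlap of EB and ESC libraries and no model name. For each list, up to 3 called members in either direction and the most abundant uncalled one were added, with a fixed set of markers. Further list members given as examples without C, and the genes so marked, were picked with their values in view. Letters are shared between KO ESCs and EBs in 2 pairs (A and B), too few to decide on pairing. Over the tested genes, the deviation of A from the mean of A and B went in part together between groups. Its r was 0.345 between KO ESCs and KO EBs and 0.346 between WT ESCs and WT EBs. Between KO and WT it was 0.355 in EBs and 0.343 in ESCs. What the letter stands for was not tested, and the main fit does not include it. Alternatives were other filters, pseudocounts, TMM scaling, sets of libraries, a letter block, edgeR 4.0.16, DESeq2 1.42.0 on recovered reads, and each library left out. Counting error and PCR duplicates cannot be separated, so floors cover counting error only.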

Additional observations from a re-analysis of the deposited data

Results flagged for a closer look

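The change from ESCs to EBs differed between KO and WT, by the test of that difference in limma with all 10 libraries, for 5 of the named genes. For the proteoglycan Cspg5 the KO change lay 4.23 above the WT change on the log2 scale, and for Ndrg2 3.65 above it. The KO change minus the WT change was -5.77 for the endoderm factor Gata4, -6.74 for the keratin Krt8 and -4.99 for its partner Krt18. Without the C libraries the differences were 4.15, 3.81, -6.00, -6.51 and -4.70. Each of the 5 lost its call when any 1 of the 4 EB libraries was left out (adjusted p = 0.08029 to 0.3717), which leaves a group with a single library assumed to vary like the others. Leaving out an ESC library A or B of either genotype ended the calls of Cspg5, Ndrg2 and Krt18 in each case and of Gata4 in all but 1, without WT ESC replicate B (adjusted p = 0.04904). Krt8 kept its call in all 4 of those fits, and all 5 genes kept theirs when 1 of the C libraries was left out.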

How the results depend on the processing

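Against 74 higher and 58 lower genes, the counts moved by over 1.5 times as follows. A pseudocount of 5 gave 143 higher, no filter on the mean gave 26 lower, and TMM scaling gave 37 lower. Without the C libraries there were 3286 higher and 4115 lower, and 3466 and 3810 when TMM scaling was added, an alternative chosen after seeing the data. The 5 KO libraries alone gave 0 and 0 in limma (1795 genes at an unadjusted p under 0.05), and the 4 KO libraries without C gave 3222 and 4058. Variances fitted with neither the trend nor the robust step, which changes both at once, gave 143 higher, edgeR 138 higher, and DESeq2 755 higher and 656 lower. The replicate block (the letter as a term) gave 1877 higher and 2557 lower, with all 74 and 58 among them. EB and ESC libraries share only letters, so whether this block is a paired design is not known. Deviations of the A libraries from the mean of A and B went in part together between groups, at r = 0.343 to 0.355 over genes. Leaving out 1 library gave 0 to 489 higher and 0 to 462 lower. For the difference of the KO and WT changes, 36 genes became 5601 without C, 5681 without C and with TMM scaling, 2615 with the replicate block, 696 in DESeq2 and 0 to 409 with 1 library left out. In every other setting run these 3 counts stayed within 1.5 times. The cause of these moves was not tested.

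Among named genes, 5 reversed without the C libraries and with the 4 KO libraries alone, namely Ttn at -0.43, Fn1 at -0.33, Igf2r at -0.48, Hist1h1c at -0.72 and Col1a1 at -1.80. The difference of the Col1a1 changes was then -0.65. With TMM scaling and without C these were -0.39, -0.29, -0.44, -0.68, -1.77 and -0.58, and Ccnd1 and Dnmt3b turned to 0.23 and 0.24. Of 86 named genes, 6 lost their call with TMM scaling and 31, which is all that were called, in the 5 KO libraries alone. Depth limits replicate C most, where 3 reads stand at 8.33 normalized counts.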
